A study of Homo sapiens with 15 samples.

Results

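The APOBEC3 genes form a tandem cluster of 7 protein-coding genes on human chromosome 22, and this account follows the histone marks across that cluster in a breast cancer line and its metastatic derivatives. MDA-MB-231 is a claudin-low, triple-negative breast cancer line. Par is that line itself, LM2 is a derivative selected in mice for growth in the lung, and BrM2 is a derivative selected for growth in the brain. H3K4me3, the mark of active promoters, and H3K27ac, the mark of active promoters and enhancers, were measured by ChIP-seq with 2 replicates per line and mark, so that 12 libraries carry counts. No genotype or treatment separates the lines beyond their selection, all were grown as monolayers for 3 days in medium with 10% serum, and LM2 and BrM2 are each 1 derived sub-population of the same parent. The 3 input samples were not used here.

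The members were every consensus peak of either mark in a 190 kb window of chromosome 22 (hg19), each assigned to the nearest 5′ end of APOBEC3A, APOBEC3B, APOBEC3C, APOBEC3D, APOBEC3F, APOBEC3G or APOBEC3H. That gave 6 of 22572 H3K4me3 peaks and 10 of 62195 H3K27ac peaks, or 16 of 84767 in all. The locus was put forward because an H3K27ac peak upstream of APOBEC3G was known to differ between these very libraries. H3K27ac in LM2 and BrM2 against Par is therefore given as a description, and so are H3K4me3 of the APOBEC3G promoter and BrM2 against LM2 at the peak upstream of APOBEC3G, since the 3 lines were viewed together there. Where calls are counted in those contrasts, the count stands beside that over all peaks and nothing is read from it. The other H3K4me3 peaks, and BrM2 against LM2 at the other peaks of both marks, were tested.

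APOBEC3 proteins are cytidine deaminases. They turn cytosine into uracil in single-stranded DNA and restrict retroviruses and retrotransposons, and their genes respond to interferon in many cell types. APOBEC3A and APOBEC3B can reach the nucleus and are known as sources of clustered and dispersed cytosine mutations in tumors, breast cancer among them. APOBEC3G, APOBEC3F, APOBEC3D and APOBEC3H are known for packaging into HIV particles that lack Vif, and APOBEC3C for a weaker restriction of retroelements. The genes arose by duplication and keep stretches of near-identical sequence, so reads from such stretches may have been placed on the wrong copy. Reads were aligned with Bowtie2 at its default settings, which report 1 position for a read that has several equally good ones, and a filter on mapping quality is not given in the sources used here.

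All 7 genes lie on the plus strand in the order A, B, C, D, F, G, H. APOBEC3A (ENSG00000128383) spans chr22:39348746-39359189, APOBEC3B (ENSG00000179750) chr22:39378352-39388809, and APOBEC3C (ENSG00000244509) chr22:39410262-39416357. APOBEC3D (ENSG00000243811) spans chr22:39417118-39429282 and APOBEC3F (ENSG00000128394) chr22:39436609-39451977. APOBEC3G (ENSG00000239713) spans chr22:39473072-39483748 and APOBEC3H (ENSG00000100298) chr22:39493229-39500072. A peak is called a promoter peak below when it lies within 2 kb of the 5′ end of its gene.

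H3K4me3 and H3K27ac both had a promoter peak at APOBEC3B, APOBEC3C, APOBEC3D, APOBEC3F and APOBEC3G. APOBEC3H had H3K27ac at its promoter and no H3K4me3 peak. APOBEC3A had no peak of either mark at its start, and its nearest peaks lay 10872 bp (H3K4me3) and 10502 bp (H3K27ac) upstream in intergenic sequence. Beyond the promoters, H3K27ac marked a 404 bp stretch of an APOBEC3B intron (chr22:39380655-39381058), a 3949 bp stretch 8223 bp before the APOBEC3G start (chr22:39460901-39464849) and a 5997 bp stretch 4137 bp before the APOBEC3H start (chr22:39483096-39489092). The peak upstream of APOBEC3G overlaps exonic sequence of ENSG00000289963, and the one upstream of APOBEC3H overlaps the 3′ end of APOBEC3G as well as ENSG00000290922 and ENSG00000225720. The peaks of both marks at the APOBEC3C and APOBEC3D promoters also overlap ENSG00000284554, a gene model that spans both. Every H3K4me3 peak of the cluster overlapped an H3K27ac peak, which covered between 56.6% and 100% of its length.

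**Figure D1:**
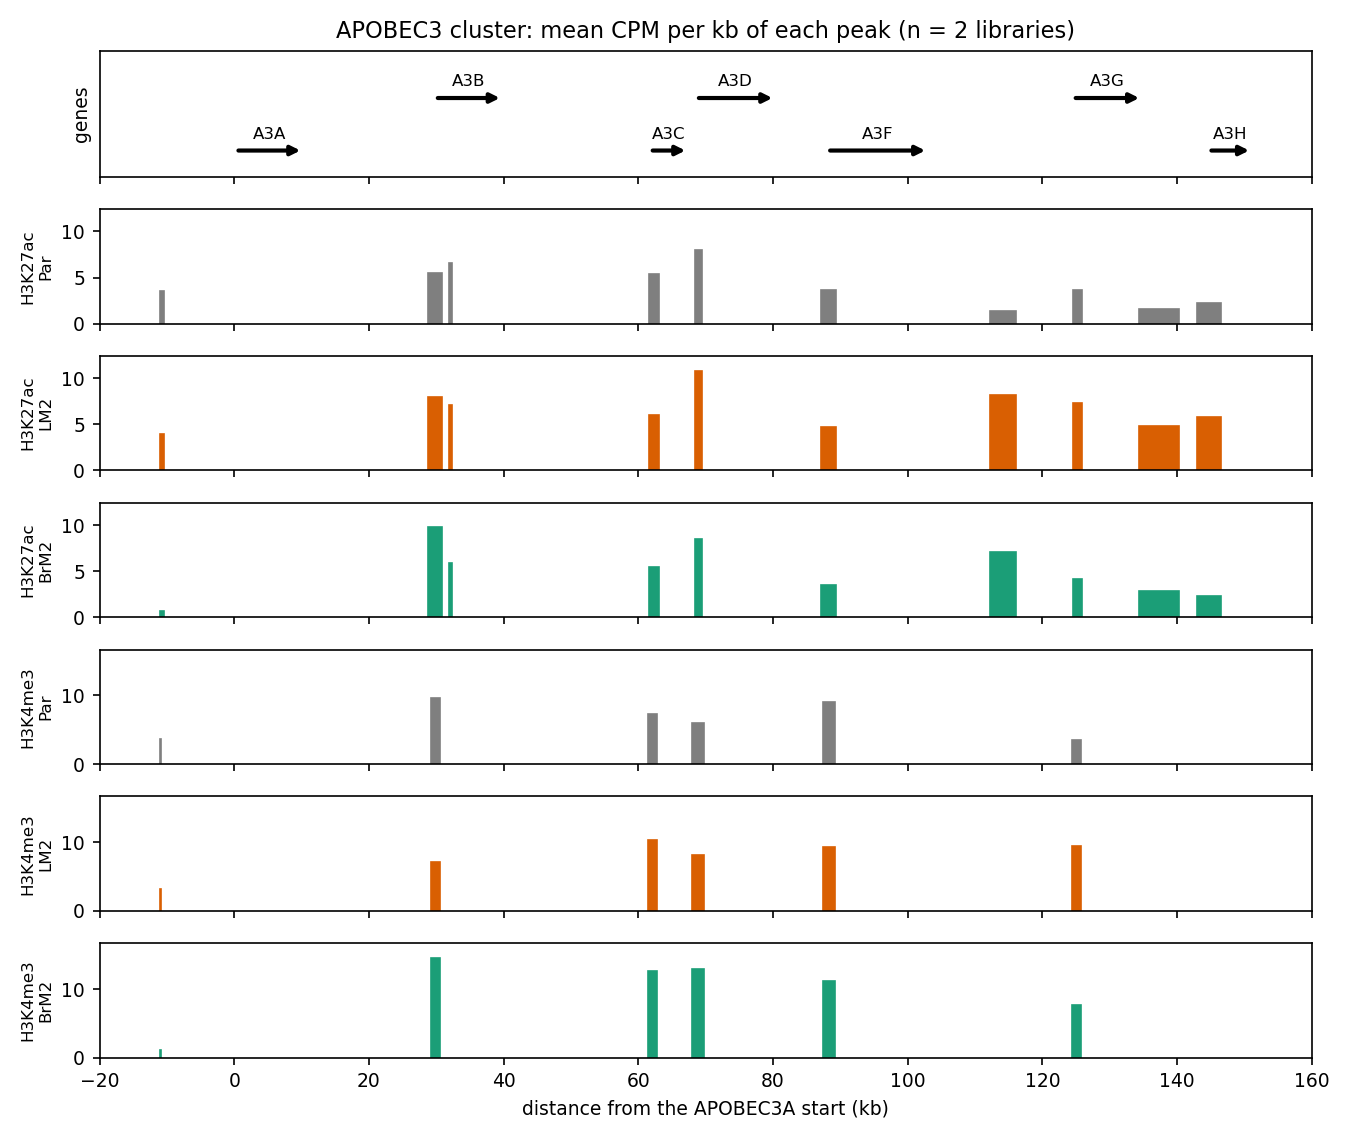
Map of the cluster: the horizontal axis is the distance from the APOBEC3A start in kb, arrows are the 7 genes with their direction of transcription, and each bar is a peak drawn to its width, with the mean CPM per kb of 2 libraries as its height, for H3K27ac and H3K4me3 in Par, LM2 and BrM2. The broad H3K27ac peaks around APOBEC3G and APOBEC3H are low in Par, and the peak upstream of APOBEC3G rises from 1.34 CPM per kb in Par to 8.21 in LM2 and 7.09 in BrM2.

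Sequence from the peak upstream of APOBEC3G is shown because that element had the widest range of H3K27ac in the cluster, and the centre of the peak upstream of APOBEC3A because it is the only marked element near that gene. Both stretches were read from GRCh37 on the plus strand: an AP-1 match of the peak upstream of APOBEC3G with 30 flanking bases on each side (chr22:39461636-39461702), and the 300 bases around the centre of the H3K27ac peak upstream of APOBEC3A (chr22:39337819-39338118). Capitals mark the matched motifs.
APOBEC3G upstream AP-1 match: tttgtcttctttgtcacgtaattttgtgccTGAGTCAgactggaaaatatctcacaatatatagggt
APOBEC3A upstream peak centre: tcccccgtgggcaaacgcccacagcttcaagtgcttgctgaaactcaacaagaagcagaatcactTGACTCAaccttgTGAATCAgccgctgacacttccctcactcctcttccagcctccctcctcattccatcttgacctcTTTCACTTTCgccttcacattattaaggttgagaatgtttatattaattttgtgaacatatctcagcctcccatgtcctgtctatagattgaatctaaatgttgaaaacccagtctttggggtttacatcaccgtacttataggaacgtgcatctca

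The motifs were searched on both strands as plain letters: TGANTCA for AP-1, TGTGGT for RUNX, GAAA, any 2 bases and GAAA again for the interferon-stimulated response element (ISRE), GGGA, any base and TTTCC for NF-kB and CCGGAAGT for ETS. The 3949 bp peak upstream of APOBEC3G held 2 AP-1 and 3 RUNX matches and no match of the other motifs. Of windows of that length centred on all 62195 H3K27ac peaks, 77.1% held an AP-1 match and 93.4% a RUNX match, so both are common in stretches so long. Of the letters that this peak lacked, ISRE was in 49.6% of those windows, NF-kB in 4.34% and ETS in 4.47%. The 300 bases upstream of APOBEC3A held 2 AP-1 matches and 1 ISRE match, and 14.1% and 6.64% of all H3K27ac peak centres held at least 1 of each. ISRE matches were also present in the H3K27ac peaks at the promoters of APOBEC3B (1), APOBEC3F (2) and APOBEC3G (1). No H3K27ac peak of the cluster matched the NF-kB letters over its whole length, and the H3K4me3 peaks were not searched. Of the 300-base centres of all H3K27ac peaks, 0.379% held those letters. A match is a description of the letters only, and the windows of these peaks are unequal in length.

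Depth set the precision of every value. Reads in peaks ranged from 3489607 to 9839629 per H3K4me3 library and from 1994996 to 6450028 per H3K27ac library, and replicate 2 was the deeper H3K4me3 library in each line. Values are given as CPM, the usual depth-scaled count, in which the reads of a peak are divided by the reads in all peaks of its library. At the marker loci used to check the lines, all 5 claudin-low genes (VIM, CD44, ZEB1, AXL and CAV1) had promoter peaks of both marks, whereas of the leukocyte genes PTPRC, CD3E and CD4 had none and CD14 had both. The luminal genes were not bare of marks: 9 of 9 had an H3K4me3 peak and 8 of 9 an H3K27ac peak, which PGR lacked. In H3K4me3 DESeq2 called ESR1 higher in LM2 and BrM2 than in Par (log2 fold changes 2.52 and 1.62), CLDN4 lower in both (-3.44 and -2.04), CLDN7 and FOXA1 higher in BrM2 than in Par (1.28 and 1.45), and CLDN7 and PGR higher in BrM2 than in LM2 (1.54 and 2.50). Of all H3K4me3 promoter peaks, DESeq2 called 2.24% in LM2 against Par, 2.99% in BrM2 against Par and 2.52% in BrM2 against LM2. Fold changes come from DESeq2, whose size factors differ from the CPM totals, so a fold change need not equal the ratio of mean CPM.

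The 5 APOBEC3 promoters with an H3K4me3 peak carried weak H3K4me3. Per kb of peak, mean levels at these 5 promoters lay between 3.56 CPM per kb (APOBEC3G in Par) and 14.5 CPM per kb (APOBEC3B in BrM2). Among all promoter peaks of the mark, those levels ranked between the 9.83 and the 27.1 percentile, so each of the 5 sat in the lower part of the range in every line. APOBEC3A and APOBEC3H had no H3K4me3 promoter peak to rank.

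The H3K27ac peaks of the cluster are taken first, from 5′ to 3′. The peak upstream of APOBEC3A was close to the limit of detection. It had 8 and 8 reads in Par, 11 and 10 reads in LM2, and 3 and 0 reads in BrM2, and no fold is given at such counts. The H3K4me3 peak there had 3 and 5 reads in Par, 3 and 7 reads in LM2, and 0 and 4 reads in BrM2. In neither mark did BrM2 exceed the other lines, but differences of a few reads could not be resolved at this depth. A count of 0 allows up to 3 reads, for counting error only.

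APOBEC3B, the deaminase most often linked to mutation in breast tumors, carried H3K27ac at its promoter in all lines. Its promoter peak (chr22:39377464-39379628) measured 10.9 and 13.1 CPM in Par, 14.6 and 19.9 CPM in LM2, and 18.9 and 23.6 CPM in BrM2. Both metastatic lines lay above Par with no overlap, while LM2 and BrM2 overlapped. Against Par, LM2 had a log2 fold change of 0.45 ± 0.40 (SE) and BrM2 one of 0.81 ± 0.40. The intronic peak just downstream, within the same gene, did not share this order: it lay between 2.29 and 2.96 CPM in all 6 libraries.

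APOBEC3C, APOBEC3D and APOBEC3F, the middle genes of the cluster, showed little spread between lines. The APOBEC3C promoter (chr22:39410296-39411806) measured 3.88 and 12.5 CPM in Par, 8.84 and 9.31 CPM in LM2, and 7.39 and 9.02 CPM in BrM2. The Par replicates enclosed every other library. At the APOBEC3D promoter (chr22:39417131-39418160) the values were 6.61 and 9.92 CPM in Par, 11.6 and 10.6 CPM in LM2, and 7.90 and 9.52 CPM in BrM2. The APOBEC3F promoter (chr22:39435838-39438168) had 7.30 and 9.66 CPM in Par, 11.3 and 10.6 CPM in LM2, and 7.90 and 8.52 CPM in BrM2. LM2 was above both other lines at APOBEC3D and APOBEC3F without overlap, by small steps. The log2 fold changes of these 3 promoters against Par lay between 0.09 and 0.37 in LM2, and at 0.00, 0.07 and -0.05 in BrM2, each smaller than its SE.

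The peak upstream of APOBEC3G, the member that drew attention to the locus, differed most. It measured 4.33 and 6.26 CPM in Par (19 and 24 reads), 36.9 and 27.9 CPM in LM2 (238 and 105 reads), and 21.9 and 34.1 CPM in BrM2 (86 and 68 reads). All 4 metastatic libraries lay above both Par libraries, and LM2 and BrM2 overlapped. On the log2 scale LM2 exceeded Par by 2.56 ± 0.42 and BrM2 exceeded it by 2.39 ± 0.43. Mean CPM in LM2 was 6.12 times that of Par, and mean CPM in BrM2 5.28 times. These values chose the locus and carry no test.

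The APOBEC3G promoter itself, whose product is a cytoplasmic restriction factor of retroviruses, did not show BrM2 apart from Par. Its H3K27ac peak (chr22:39473287-39474695) measured 2.74 and 7.57 CPM in Par, 11.9 and 8.78 CPM in LM2, and 4.59 and 7.02 CPM in BrM2. LM2 was above the other lines and BrM2 fell within the range of Par. Its log2 fold change against Par was 0.96 ± 0.58 for LM2 and 0.15 ± 0.62 for BrM2, or 1.86 and 1.06 without Par replicate 2. The lowest values in fits without 1 library were 0.39 in LM2 and -0.42 in BrM2. The distal and the promoter peak of the same gene thus had different values in BrM2, 2.39 against 0.15 on the log2 scale, although the difference between the 2 peaks was not tested.

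APOBEC3H, another antiviral member, had broad H3K27ac at 2 peaks, upstream and at the promoter. Its upstream peak measured 5.47 and 14.1 CPM in Par, 29.5 and 29.0 CPM in LM2, and 14.5 and 19.5 CPM in BrM2. The 3 lines did not overlap, with BrM2 in the middle. Relative to Par, the log2 fold change of this peak came to 1.52 ± 0.44 for LM2, or 2.35 without Par replicate 2, and to 0.80 ± 0.46 for BrM2, or 1.63 without that library. For the upstream peak the lowest values in fits without 1 library were 0.98 in LM2 and 0.26 in BrM2. At the promoter peak, which holds the 5′ end (chr22:39491682-39495263), the values were 4.56 and 11.2 CPM in Par, 19.7 and 22.1 CPM in LM2, and 6.88 and 9.52 CPM in BrM2. There LM2 stood apart and BrM2 lay within the range of Par, with log2 fold changes of 1.35 ± 0.48 and 0.04 ± 0.51. Without Par replicate 2, the higher of the Par libraries at this peak, these values were 2.13 and 0.83. The lowest values in fits without 1 library were 0.83 in LM2 and -0.48 in BrM2.

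**Figure D2:**
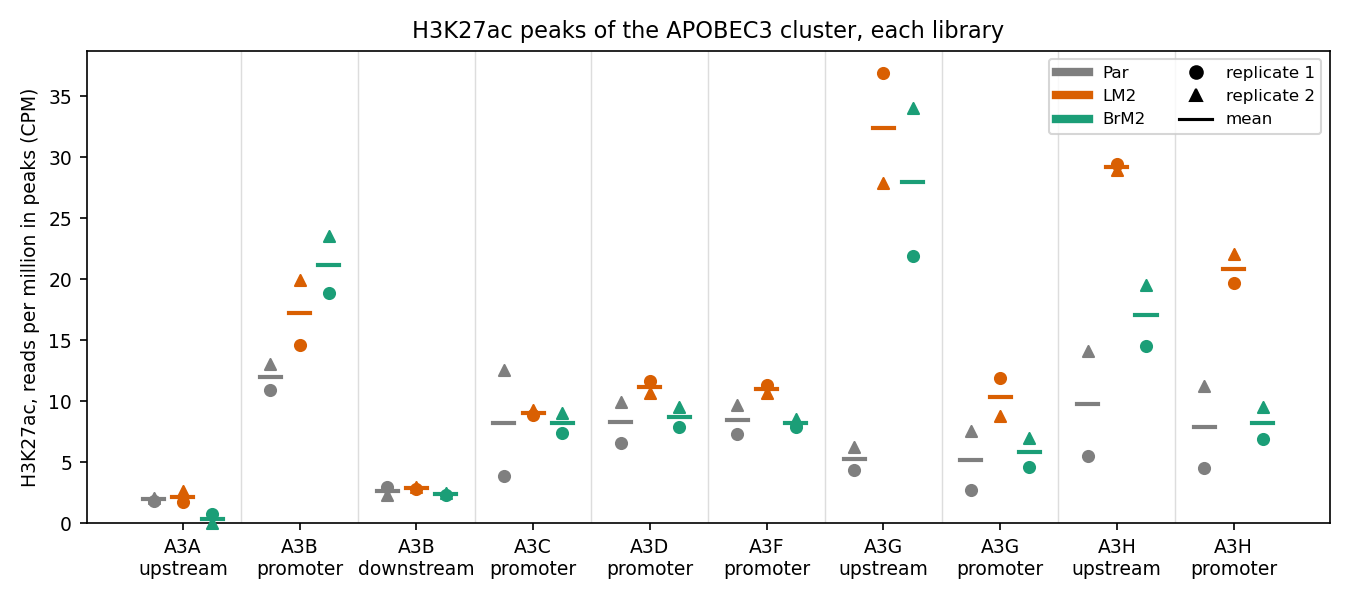
H3K27ac at the 10 peaks of the cluster: the vertical axis is CPM, circles and triangles are replicates 1 and 2, and short lines are the means of 2 libraries for Par (grey), LM2 (orange) and BrM2 (green). The peak upstream of APOBEC3G has all 4 metastatic libraries between 21.9 and 36.9 CPM and both Par libraries below 7 CPM, and both APOBEC3H peaks are highest in LM2.

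Of the 10 H3K27ac peaks, 10 had a log2 fold change above 0 in LM2 against Par (median 0.41) and 6 in BrM2 against Par (median 0.05), beside medians of -0.02 in both contrasts over all 62195 peaks. Of all peaks, 48.5% and 49.1% lay above 0 in those contrasts. The 10 include the peak of few reads upstream of APOBEC3A. At an adjusted p under 0.05 in DESeq2, 2 peaks were called in LM2 (upstream of APOBEC3G and of APOBEC3H, both higher), where 3.63% of all peaks with an adjusted p were called in either direction, and 1 in BrM2 (upstream of APOBEC3G, higher), where 5.29% were. Since the locus was chosen from this contrast, nothing is read from these counts. With the replicate number as a block, a term for what same-numbered libraries share, the APOBEC3H promoter was also called in LM2 (log2 fold change 1.44 ± 0.43), where 5.44% of peaks were called, and BrM2 kept its count of 1, where 8.13% were. edgeR called 3 peaks in LM2 and 1 in BrM2 beside 5.14% and 6.88% of all peaks, and with the block 4 and 2 beside 13.2% and 15.9%. The count in LM2 turned on single libraries: it was 1 without Par replicate 1, LM2 replicate 1, LM2 replicate 2 or BrM2 replicate 1, and 3 without Par replicate 2.

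Summed over the 10 peaks, H3K27ac was 50.6 and 88.7 CPM in Par, 149 and 144 CPM in LM2, and 93.0 and 123 CPM in BrM2. Without the peak upstream of APOBEC3G the sums were 46.3 and 82.5 CPM in Par, 112 and 116 CPM in LM2, and 71.1 and 89.2 CPM in BrM2. LM2 then still lay above the other lines, and BrM2 overlapped Par.

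Levels can be ordered between members only per length. In Par the highest H3K27ac per kb was at the APOBEC3D promoter (8.03 CPM per kb) and the lowest at the peak upstream of APOBEC3G (1.34 CPM per kb). In LM2 the APOBEC3D promoter was again first (10.8 CPM per kb) and the peak upstream of APOBEC3G second (8.21 CPM per kb). In BrM2 the APOBEC3B promoter led (9.80 CPM per kb), followed by the APOBEC3D promoter (8.46) and the peak upstream of APOBEC3G (7.09). The first 3 of each line were not all separated by their libraries: the APOBEC3D promoter overlapped the next member in Par and BrM2 and not in LM2, and the APOBEC3B promoter overlapped the next member in all 3 lines. Among all H3K27ac peaks, the level per kb of the peak upstream of APOBEC3G ranked at the 3.22 percentile in Par, at 80.4 in LM2 and at 72.1 in BrM2. It is not a promoter peak, and among H3K27ac promoter peaks it would rank at 1.05 in Par, at 60.5 in LM2 and at 50.6 in BrM2.

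BrM2 was then compared with LM2 at every peak. No H3K27ac peak of the cluster passed at an adjusted p under 0.05 with DESeq2, where 2.94% of all peaks were called, and 1 of 10 had an unadjusted p under 0.05. edgeR also called 0, with 2 peaks under 0.05 before adjustment and 3.89% of all peaks called. The one below 0.05 in DESeq2 was the APOBEC3H promoter, with a log2 fold change of -1.31 ± 0.49 and a 95% interval from -2.27 to -0.34 (DESeq2 adjusted p = 0.139). It was lower in BrM2 within both replicate numbers, at 0.35 and 0.43 times the CPM of LM2. The labels do not state these to be pairs. With the replicate block the DESeq2 adjusted p was 0.0537, where 6.17% of all peaks were called and none of the cluster, with 2 under 0.05 before adjustment. With edgeR and the block the adjusted p was 0.00258, and this peak was the 1 called of 10, beside 12.5% of all peaks.

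At the peak upstream of APOBEC3G, described only, the log2 fold change was -0.17 ± 0.38, with a 95% interval from -0.91 to 0.58. The interval leaves room for a difference of nearly 1 log2 unit toward LM2, so equality of the lines is not shown. Its sign turned with the libraries, to 0.03 without LM2 replicate 1 and 0.15 without BrM2 replicate 1. The peak upstream of APOBEC3H gave -0.73 ± 0.43 (DESeq2 adjusted p = 0.499) and the APOBEC3G promoter -0.81 ± 0.59 (DESeq2 adjusted p = 0.639). In 9 of 10 H3K27ac peaks the log2 fold change was below 0, and the APOBEC3B promoter was the exception at 0.36 ± 0.39 (DESeq2 adjusted p = 0.808). Over all 62195 H3K27ac peaks, 48.9% lay above 0. The 9 include the described peak upstream of APOBEC3G and the peak of few reads upstream of APOBEC3A. Neighbouring peaks of 1 locus are not replicates, and the shared sign was not tested.

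**Figure D3:**
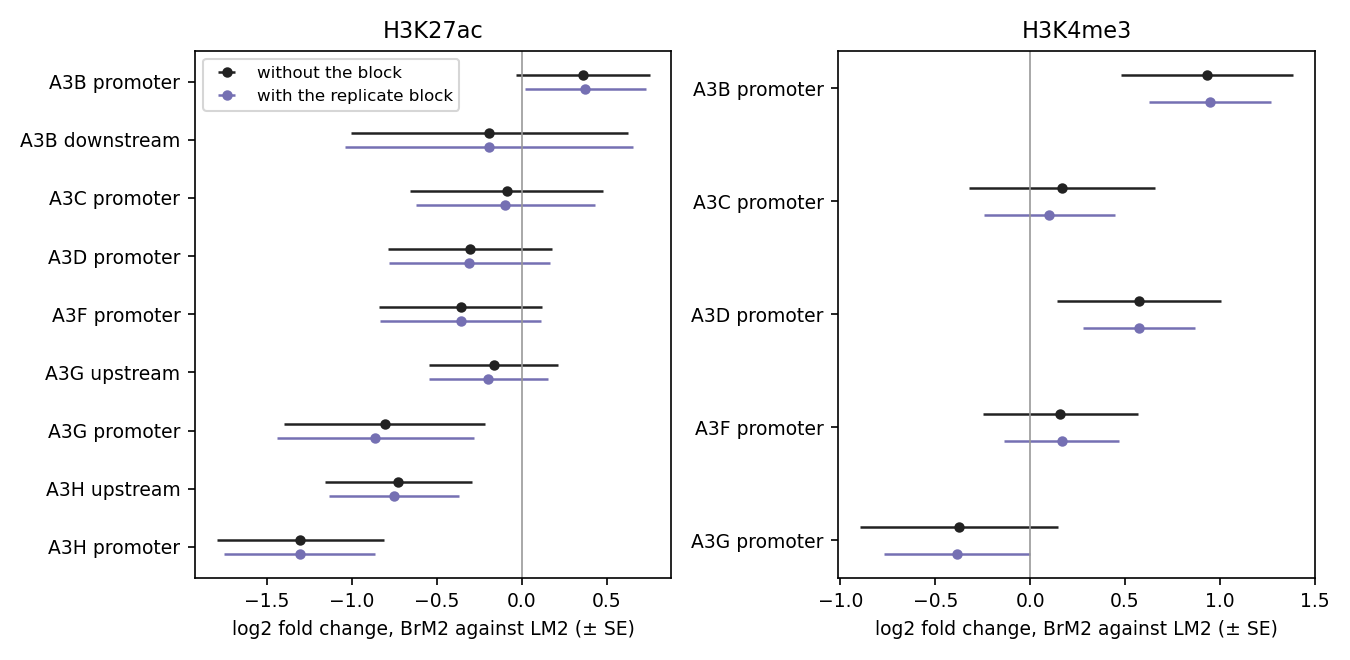
Log2 fold change of BrM2 against LM2 from DESeq2, with its standard error as bars, for H3K27ac (left) and H3K4me3 (right) at the peaks of the cluster other than the one upstream of APOBEC3A, fitted without (black) and with (purple) the replicate number as a block. The APOBEC3H promoter is farthest to the left at -1.31 for H3K27ac, the APOBEC3B promoter is farthest to the right at 0.93 for H3K4me3, and the bars for H3K4me3 are shorter with the block.

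H3K4me3 was tested against Par at 4 promoters and described at the fifth, APOBEC3G. The APOBEC3B promoter (chr22:39377943-39379360) measured 8.31 and 19.2 CPM in Par, 7.80 and 12.4 CPM in LM2, and 16.4 and 24.8 CPM in BrM2. BrM2 lay above LM2 without overlap, and Par overlapped both. Within each replicate number LM2 was at or below Par, at 0.94 and 0.65 times, and BrM2 above it, at 1.97 and 1.29 times. Against Par, the log2 fold change stood at -0.41 ± 0.46 for LM2 (DESeq2 adjusted p = 1.0) and 0.53 ± 0.45 for BrM2 (DESeq2 adjusted p = 0.893).

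The APOBEC3C promoter (chr22:39410173-39411559) had 6.59 and 13.7 CPM in Par, 12.2 and 16.7 CPM in LM2, and 9.39 and 25.8 CPM in BrM2. All 3 lines overlapped. The APOBEC3D promoter (chr22:39416644-39418462) had 7.16 and 14.7 CPM in Par, 11.9 and 17.7 CPM in LM2, and 17.5 and 29.7 CPM in BrM2, so that BrM2 lay above Par without overlap. Its log2 fold change in BrM2 against Par was 1.04 ± 0.44 (DESeq2 adjusted p = 0.26). With the replicate block it was 1.05 ± 0.31 and was called (DESeq2 adjusted p = 0.00695), where 17.7% of all peaks were called. The APOBEC3F promoter (chr22:39436243-39438003) was the most even, with 16.3 and 15.6 CPM in Par, 14.5 and 18.3 CPM in LM2, and 14.4 and 24.9 CPM in BrM2. Its log2 fold changes against Par were 0.06 ± 0.42 in LM2 and 0.22 ± 0.41 in BrM2.

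The APOBEC3G promoter (chr22:39473210-39474554) had the lowest H3K4me3 of the 5 promoters in Par. It measured 2.87 and 6.70 CPM in Par, 8.72 and 16.8 CPM in LM2, and 6.77 and 14.1 CPM in BrM2. Both metastatic lines lay above Par, in BrM2 by a narrow margin (6.77 against 6.70 CPM). Within a replicate number the ratio to Par was 3.04 and 2.50 in LM2 and 2.36 and 2.11 in BrM2. Log2 fold changes against Par were 1.42 ± 0.55 for LM2 and 1.04 ± 0.55 for BrM2, given without a test. H3K27ac at this promoter, set beside it, was 0.96 ± 0.58 and 0.15 ± 0.62.

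**Figure D4:**
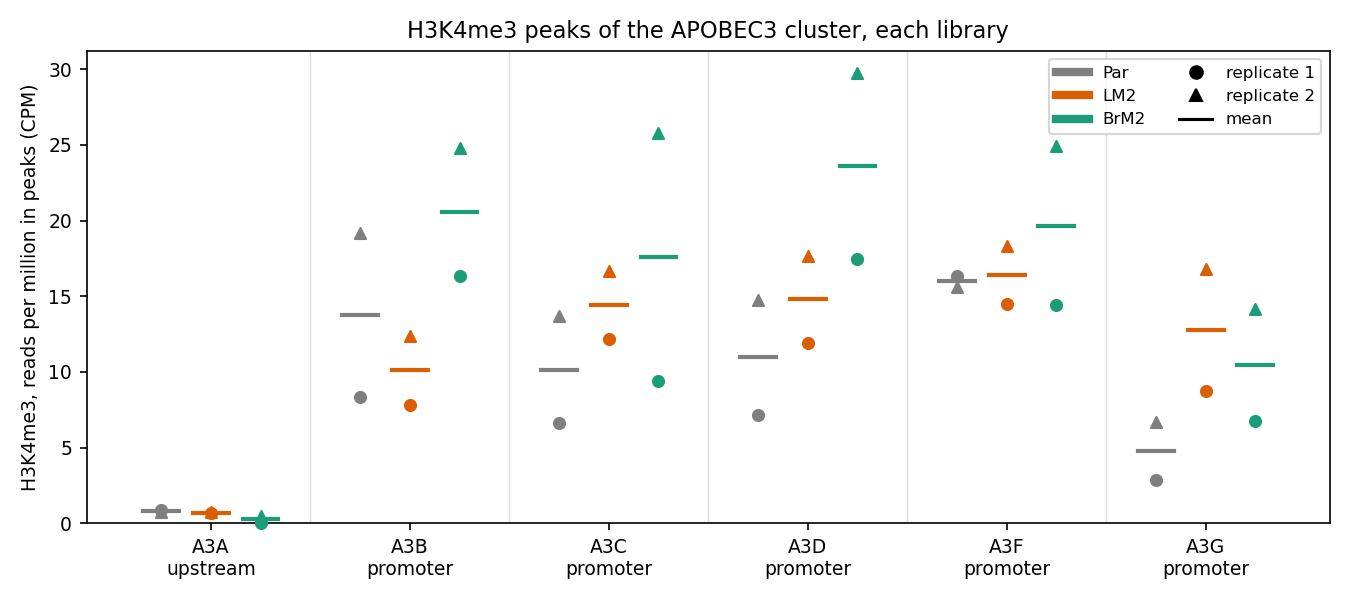
H3K4me3 at the 6 peaks of the cluster: the vertical axis is CPM, circles and triangles are replicates 1 and 2, and short lines are the means of 2 libraries for Par (grey), LM2 (orange) and BrM2 (green). Replicate 2 is above replicate 1 at nearly every promoter, APOBEC3B and APOBEC3D are highest in BrM2, and APOBEC3G is lowest in Par.

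Replicate 2 had the higher H3K4me3 CPM in all 3 lines at APOBEC3B, APOBEC3C, APOBEC3D and APOBEC3G, and in LM2 and BrM2 at APOBEC3F. The part of depth in this was not tested. With DESeq2 no H3K4me3 peak of the cluster was called in LM2 against Par, in BrM2 against Par or in BrM2 against LM2, where 2.51%, 3.61% and 3.18% of all peaks were called. In each contrast 1 peak had an unadjusted p under 0.05 in DESeq2. It was APOBEC3G in LM2 (described only, so nothing is read from it), APOBEC3D in BrM2 and APOBEC3B in BrM2 against LM2. edgeR also called 0 in each contrast, beside 1.61%, 3.07% and 2.81% of all peaks. With the replicate block DESeq2 called 1 peak in each contrast, APOBEC3G in LM2 (described only), APOBEC3D in BrM2 and APOBEC3B in BrM2 against LM2, where the block raised the share called over all peaks to 14.4%, 17.7% and 22%. The shares of members called, 1 of 6 each, are near these backgrounds. With edgeR and the block 1, 3 and 2 peaks were called, beside 26.2%, 33.3% and 38.6%. The median log2 fold change of the 6 peaks was 0.26 in LM2 and 0.62 in BrM2 against Par, beside 0.02 and -0.02 over all 22572 peaks. The 6 include the APOBEC3G promoter, described only, and the peak of few reads upstream of APOBEC3A, so these medians are a description.

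Between the metastatic lines, H3K4me3 differed most at APOBEC3B. BrM2 had 2.10 and 2.0 times the CPM of LM2 within replicates 1 and 2. The log2 fold change was 0.93 ± 0.45 with a 95% interval from 0.04 to 1.82 (DESeq2 adjusted p = 0.409). With the replicate block it was 0.95 ± 0.32 and was called (DESeq2 adjusted p = 0.0195). APOBEC3D followed at 0.57 ± 0.43 (DESeq2 adjusted p = 0.778), APOBEC3C at 0.17 ± 0.49 and APOBEC3F at 0.16 ± 0.41. APOBEC3G had the opposite sign at -0.38 ± 0.52, given as a description. Of the 5 promoters with both marks, the marks had the same sign at APOBEC3B and APOBEC3G, and H3K4me3 was above 0 and H3K27ac below 0 at APOBEC3C (0.17 and -0.09), APOBEC3D (0.57 and -0.30) and APOBEC3F (0.16 and -0.36).

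The peaks nearest the edges of the window were read for comparison. At the left edge the last peaks inside are those upstream of APOBEC3A, and the first outside (H3K27ac, chr22:39322254-39324186) measured 6.84 and 6.79 CPM in Par, 6.20 and 3.46 CPM in LM2, and 8.92 and 3.51 CPM in BrM2. At the right edge the last H3K27ac peak inside is the APOBEC3H promoter, and the first outside (chr22:39540124-39542097, in a CBX7 intron) measured 19.4 and 11 CPM in Par, 17.4 and 17.0 CPM in LM2, and 11 and 12 CPM in BrM2. Neither of these outer peaks had both metastatic lines apart from Par in the direction of the peak upstream of APOBEC3G. For H3K4me3 the last peaks inside are upstream of APOBEC3A and at the APOBEC3G promoter. The first outside had 3.44 and 5.51 CPM in Par, 5.05 and 6.61 CPM in LM2, and 3.06 and 5.08 CPM in BrM2 on the left (chr22:39323186-39324319). On the right (chr22:39540091-39542216) it had 62.2 and 49.3 CPM in Par, 92.7 and 69.1 CPM in LM2, and 76.4 and 52.3 CPM in BrM2. LM2 lay above Par there without overlap. Without the replicate block this outer peak was not called in LM2 against Par (0.58 ± 0.41, DESeq2 adjusted p = 0.932). Nor was it called in BrM2 against LM2 (-0.43 ± 0.41, DESeq2 adjusted p = 0.874). With the block it was called higher in LM2 than in Par (0.56 ± 0.15, DESeq2 adjusted p = 0.0035). It was then also called lower in BrM2 than in LM2 (-0.44 ± 0.15, DESeq2 adjusted p = 0.0191). The block called 14.4% and 22% of all H3K4me3 peaks in those contrasts. Medians over the peaks within 5 Mb of the window were small, at 0.10 and 0.06 for H3K4me3 (181 peaks) and -0.06 and -0.08 for H3K27ac (366 peaks) in LM2 and BrM2 against Par.

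Of 24 protein-coding genes that start within 500 kb of the window, 22 had an H3K27ac and 21 an H3K4me3 promoter peak. In H3K27ac only MGAT3, a glycosyltransferase of N-glycans, was called, higher in BrM2 than in Par at a log2 fold change of 2.81 ± 0.90 (DESeq2 adjusted p = 0.0366), on mean levels of 0.897 and 6.30 CPM, where 3.12% of all promoter peaks were called. In H3K4me3 only PDGFB, a growth factor gene, was called, higher in LM2 than in Par at 1.25 ± 0.38 (DESeq2 adjusted p = 0.044), where 2.24% of all promoter peaks were called. With the block 2 neighbours were higher in LM2 and 2 in BrM2 than in Par in H3K4me3. The block called 17.0% and 21.9% of all H3K4me3 promoter peaks in those contrasts. In BrM2 against LM2 it called 2 neighbours lower in H3K4me3, where it called 27% of all promoter peaks. The PDGFB libraries measured 21.5 and 17.9 CPM in Par, 38.1 and 54.9 CPM in LM2, and 20.3 and 32.7 CPM in BrM2. The medians of the neighbours were 0.02 and 0.01 for H3K27ac in LM2 and BrM2 against Par, where those of all promoter peaks were -0.11 and -0.06. CACNA1I and KCNJ4, ion channel genes, had no promoter peak of either mark, and MGAT3 had none of H3K4me3.

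Genes that act with the APOBEC3 enzymes were read from lists drawn up for this account. Among the other deaminases of the family, APOBEC1, APOBEC2 and APOBEC4 had no promoter peak of either mark. All 10 genes of uracil repair and bypass (UNG, SMUG1, TDG, MBD4, APEX1, XRCC1, LIG3, POLB, REV1 and HMCES) had both marks at their promoters. DESeq2 called 0 of the 10 in each contrast of either mark, and at an unadjusted p under 0.05 there were 2 for H3K27ac and 1 for H3K4me3 in BrM2 against LM2 and 0 in the contrasts with Par. With the replicate block, H3K4me3 in BrM2 against LM2 was called higher at UNG, the main uracil glycosylase (0.74 on the log2 scale, DESeq2 adjusted p = 0.000869), and at APEX1, an abasic site endonuclease (0.56), and lower at HMCES, which shields abasic sites (-0.50), where the block called 27% of all promoter peaks. Against Par the block called H3K4me3 of UNG higher in BrM2 (0.58) and of APEX1 lower in LM2 (-0.51), where it called 21.9% and 17.0% of promoter peaks. In H3K27ac it called UNG higher in BrM2 than in LM2 (1.44, DESeq2 adjusted p = 0.0247), where 4.65% were called.

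Of 13 genes for restriction and nucleic acid sensing, all 13 had both marks, over 12 distinct peaks. DESeq2 without the block called 1 H3K4me3 peak, that of BST2, the tetherin gene, which holds budding virions at the cell surface. It measured 12.3 and 21.4 CPM in Par, 3.67 and 7.83 CPM in LM2, and 13.3 and 23.3 CPM in BrM2. BrM2 exceeded LM2 by 1.56 ± 0.48 on the log2 scale (DESeq2 adjusted p = 0.0361). Of 13 genes known to regulate APOBEC3 transcription or its inducers, 13 had both marks, and DESeq2 without the block called 1. RELA, the p65 subunit of NF-kB, fell in H3K27ac in BrM2 against Par by 0.90 ± 0.30 on the log2 scale (DESeq2 adjusted p = 0.0475), from 66.6 and 65.8 CPM to 32.9 and 38.6. Over all promoter peaks, DESeq2 called 3.12% in that contrast and 2.52% for H3K4me3 in BrM2 against LM2. BST2 and RELA were also called with the block.

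The promoters whose H3K27ac pattern was most like that of the peak upstream of APOBEC3G were ranked over 1171 genes by Pearson's r of log2(CPM + 1) across the 6 H3K27ac libraries, which share depth and line. They were JAK3 (r = 0.990), a cytokine receptor kinase, PIK3CD (0.975), a catalytic subunit of PI3-kinase, PSD4 (0.963), an exchange factor for ARF6, PLCB1 (0.962), a phospholipase C, and MUC2 (0.962), a secreted mucin. JAK3 measured 5.25 and 5.74 CPM in Par, 20.8 and 17.3 CPM in LM2, and 14.8 and 16.5 CPM in BrM2. These are the 5 highest of many comparisons across 6 points and are given as a description.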

How the data were processed

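ChIP-seq counts of H3K4me3 and H3K27ac came from 2 biological replicates each of Par, LM2 and BrM2. The deposited counts are raw whole-number reads per consensus peak: per the study's methods and the submitters' processing notes, the authors aligned reads to hg19 with Bowtie2 (2.3.4.3), marked duplicates with Picard (2.18.21), merged the libraries of a mark to call broad peaks with MACS2 (2.1.2) and counted reads per library with featureCounts (1.6.0). Because peaks were called on merged libraries, a peak need not be present in every line. The region lists hold only start and end positions, which equal those of the count tables for all peaks.

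Counts of all peaks of a mark were fitted with DESeq2 (1.42.0, R 4.3.3; design by line, 6 libraries, 3 residual degrees of freedom, default filtering, Benjamini-Hochberg adjustment over all peaks, threshold 0.05, folds not shrunken), the tool of the study's methods. edgeR (4.0.16) quasi-likelihood fits with TMM, DESeq2 with TMM factors, a minimum of 10 counts in 2 libraries, removal of the median of peaks within 5 Mb, fits without each library and fits with the replicate number as a block were the alternatives. The labels give replicate numbers and state no pairing. Differences between replicates 1 and 2 correlated between lines at r = 0.683, 0.632 and 0.675 for H3K4me3 and 0.245, 0.320 and 0.271 for H3K27ac. Depth ran the same way in every line, with replicate 2 deeper for H3K4me3 and replicate 1 for H3K27ac. Its part in these correlations was not tested. Genes were taken from GENCODE release 44 lifted to GRCh37, and a peak within 2 kb of a gene's 5′ end was its promoter peak. The DESeq2 fit by line and the edgeR fit without the block were run on simulated counts for LM2 against Par. The other fits, those with the block among them, were not. All peaks of the window are reported, the genes of the lists are named where called by DESeq2 without the block or lacking a peak, and UNG, APEX1 and HMCES were named after their values were seen. The members and lists were chosen with earlier results of these data known. P-values measure the spread between 2 replicates per line. Input samples were not used. Some genes of the lists and some sequences are not reported here.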

Additional observations from a re-analysis of the deposited data

Results flagged for a closer look

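The H3K4me3 effect at the APOBEC3B promoter differed between the metastatic lines in the fit with the replicate block: BrM2 minus LM2, both against Par, was 0.95 ± 0.32 on the log2 scale (DESeq2 adjusted p = 0.0195), higher in BrM2 in 2 of 2 replicate pairs. Without the block the value was 0.93 ± 0.45 and did not pass (DESeq2 adjusted p = 0.409). The block called 22% of all H3K4me3 peaks in this contrast, where the fit without it called 3.18%. The 1 call among the 6 peaks of the cluster is near the share called with the block, so it does not set this promoter apart.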

How the results depend on the processing

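Counts of called peaks of the cluster turned mainly on the replicate block, which reduces the residual degrees of freedom to 2. For H3K4me3 the count was 0 in LM2 against Par, BrM2 against Par and BrM2 against LM2 without the block. It was 1, 1 and 1 with the block in DESeq2, 1, 3 and 2 with the block in edgeR, and 1, 1 and 1 with the block and the local median removed. For H3K27ac the counts of 2, 1 and 0 became 4, 2 and 1 with the block in edgeR. Leaving out 1 library at a time gave 0 to 0 for every H3K4me3 contrast, 1 to 3 for H3K27ac in LM2 against Par, 1 to 1 in BrM2 against Par and 0 to 0 in BrM2 against LM2. The block changed no other call of the cluster in DESeq2 than those at APOBEC3G, APOBEC3D and APOBEC3B for H3K4me3 and the APOBEC3H promoter for H3K27ac.

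With the local median removed, the H3K4me3 log2 fold change of the APOBEC3F promoter in LM2 against Par turned from 0.06 to -0.039, without and with the block. Without 1 library each, fold changes crossed 0 as follows: for H3K4me3 the APOBEC3B promoter (LM2 against Par, -0.77 to 0.14), the APOBEC3F promoter (LM2 against Par, -0.13 to 0.24; BrM2 against Par, -0.061 to 0.46; BrM2 against LM2, -0.11 to 0.40) and the APOBEC3C promoter (BrM2 against LM2, -0.54 to 0.64), and for H3K27ac the APOBEC3C promoter (BrM2 against LM2, -0.22 to 0.067) the peak upstream of APOBEC3G (BrM2 against LM2, -0.50 to 0.15) and several peaks against Par. The latter were the APOBEC3C promoter (LM2, -0.54 to 1.16; BrM2, -0.62 to 1.07), the intronic peak of APOBEC3B (LM2, -0.12 to 0.21; BrM2, -0.31 to 0.025) and, in BrM2, the promoters of APOBEC3D (-0.20 to 0.39), APOBEC3F (-0.24 to 0.17), APOBEC3G (-0.42 to 1.06) and APOBEC3H (-0.48 to 0.83). DESeq2 with TMM factors, the minimum of 10 counts and the removed local median without the block gave the same counts of called peaks as the fit they altered. With 2 libraries per line, a peak without a call is not shown to be equal between lines. The smallest difference that these fits could detect is not given here.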
